A study of Mus musculus with 48 samples.

Results

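Prl2c2 and Prl2c3 are 2 of the 11313 genes in the deposited exon and intron tables. Both encode proliferin, and they were chosen by name because their levels were far higher in fibroblasts carrying a hairpin against Bmal1 than in control fibroblasts. The difference between the lines is therefore given as a description with no test, and the tests concern the course of the RNA through time within each line.

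The cells were NIH 3T3, immortalised mouse embryonic fibroblasts that keep a circadian clock in culture. One stable line carried a control hairpin (shCTRL) and the other a hairpin against Bmal1 (shBmal1), the clock's core activator, listed in the tables as Arntl. Cultures of both lines received medium with 50% horse serum for 2 h to synchronise their clocks and were collected every 2 h from 24 to 46 h. Each culture gave 1 library of total RNA and 1 of RNA labelled with 4-thiouridine (4sU), a uridine analogue that enters newly made transcripts. The 4 groups thus held 12 libraries each, 1 per time, and each genotype was represented by a single stable line. P-values measure the spread of single libraries around a fitted course, and the spread between independent lines was not measured.

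Proliferins are secreted glycoproteins of the prolactin family. They are best known from the placenta, where trophoblast giant cells release them and they act on growing blood vessels, and from mouse fibroblasts, where serum and growth factors switch the genes on in proliferating cells. They bind a mannose 6-phosphate receptor through sugar tags that also mark lysosomal enzymes, and AP-1 and glucocorticoid receptor act at the proliferin promoter. Prl2c2 and Prl2c3 are near-identical copies, so reads can match both. The sources used here do not say how such reads were counted. Values are therefore given for each gene and for their sum.

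In the RefSeq annotation of GRCm38.p6, Prl2c2 lies on chromosome 13 from 12996120 to 13005393 and Prl2c3 on the same chromosome from 12790816 to 12800093. Both are protein-coding genes, and 196 kb separate them. The 250 bases before the start of Prl2c3 in the RefSeq promoter table are shown because the copies moved together and AP-1 sites are a known feature of proliferin promoters. They lie at chr13:12800080-12800329 on the minus strand, next to a start at 12800079. That start lies just inside the outer end of the gene's annotated span, 12800093. The bases are written 5′ to 3′ with the motif matches in capitals.
Prl2c3 promoter: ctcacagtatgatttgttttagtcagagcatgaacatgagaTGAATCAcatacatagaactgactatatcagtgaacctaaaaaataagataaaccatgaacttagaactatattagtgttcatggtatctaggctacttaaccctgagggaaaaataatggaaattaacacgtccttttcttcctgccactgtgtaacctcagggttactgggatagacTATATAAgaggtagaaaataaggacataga
The capitals mark a match to the AP-1 letters TGANTCA from position -209 to -203 and a TATA box match (TATATAA) from -30 to -24, counted from the start at 12800079. N stands for any base, and here it is A (TGAATCA). Whether AP-1 binds these bases was not tested. Both strands of the window from 250 bases before to 50 after the start were searched. The AP-1 letters occur in 7.81% of the 32851 RefSeq windows of that length, and the TATA letters in 3.24%. The E-box CACGTG that the BMAL1 dimer binds (7.15% of windows), the D-box TTATGTAA (0.938%) and the cAMP response element TGACGTCA (1.79%) had no match in the Prl2c3 window. Neither did the ROR core AGGTCA (16.3%) or the glucocorticoid half-site AGAACA (19%). Only these exact letters were searched, so near matches were not counted. No RefSeq window was available for Prl2c2, so the matches and absences hold for Prl2c3 only.

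Library totals recovered from the RPKM (reads per kilobase of exon or intron, scaled to the reads of the library) ran from 48873013 to 76260143 reads. Arntl exon RNA in total RNA was lower in shBmal1 at 9 of 12 times and 1.69-fold higher at 24 h, the time at which its shCTRL level was lowest. Its shCTRL levels ran from 1.33 to 17.3 scaled RPKM and its shBmal1 levels from 2.25 to 4.71. Of the fibroblast markers, 11 of 13 had rows, led by Vim and Fn1, and their summed level ran from 4957 to 6850 scaled RPKM. The 14 trophoblast markers on the list, which include Tpbpa, Hand1 and Gcm1, were not analysed here. Of the endothelial, leukocyte and muscle markers, 1, 3 and 2 had rows, and their summed levels reached at most 0.872, 23.2 and 8.81 scaled RPKM. Their part in the results on the proliferin genes was not tested.

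Prl2c2 exon RNA in total RNA was low in shCTRL and declined with time. Its levels at 24, 26, 28, 30, 32 and 34 h were 4.29, 4.67, 4.44, 3.31, 3.73 and 3.09 scaled RPKM, and those at 36, 38, 40, 42, 44 and 46 h were 3.26, 1.95, 1.30, 1.30, 1.45 and 1.75. In shBmal1 the levels from 24 to 34 h were 41.1, 41.4, 28.2, 38.5, 19.3 and 28.3 scaled RPKM, and those from 36 to 46 h were 17.6, 14.3, 11.5, 9.96, 9.51 and 9.15. The lines did not overlap: the lowest shBmal1 library, at 46 h, lay above the highest shCTRL library, at 26 h. These levels rest on 65 to 296 reads per library in shCTRL and 396 to 2264 in shBmal1.

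Prl2c3 had the same order of lines. Its shCTRL levels in total RNA from 24 to 34 h were 2.19, 3.16, 2.80, 1.61, 1.71 and 1.70 scaled RPKM, and those from 36 to 46 h were 1.61, 1.93, 0.618, 1.46, 0.863 and 0.994. The shBmal1 levels were 33.1, 33.3, 24.8, 33.1, 17.6 and 22.9 in the earlier 6 libraries and 14.9, 10.3, 8.74, 8.26, 6.11 and 7.34 in the later 6. Every shBmal1 library again lay above every shCTRL library. The low shCTRL value at 40 h came from 34 reads, with a 95% exact Poisson interval of 23.5 to 47.5 that covers counting error only.

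Averaged over the 12 times, the log2 difference of shBmal1 minus shCTRL in total exon RNA was 2.84 for Prl2c2 (SD over times 0.38), 3.21 for Prl2c3 (SD 0.59) and 3.01 for the sum (SD 0.42). These were the 3rd and 2nd highest of the 10912 genes tested for Prl2c2 and Prl2c3, respectively. Of all genes, 5.87% had every shBmal1 library above every shCTRL library, and 0.889% were higher at adjusted p under 0.05 with a log2 difference of at least 1. The sum was from 6.01-fold (at 46 h) to 14.5-fold (at 30 h) higher, so the gap stood at each of the 12 times. Since each genotype is 1 stable line, the hairpin and other properties of the line cannot be told apart. In bulk RNA, more cells that express the genes and more RNA per cell cannot be told apart either.

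**Figure D1:**
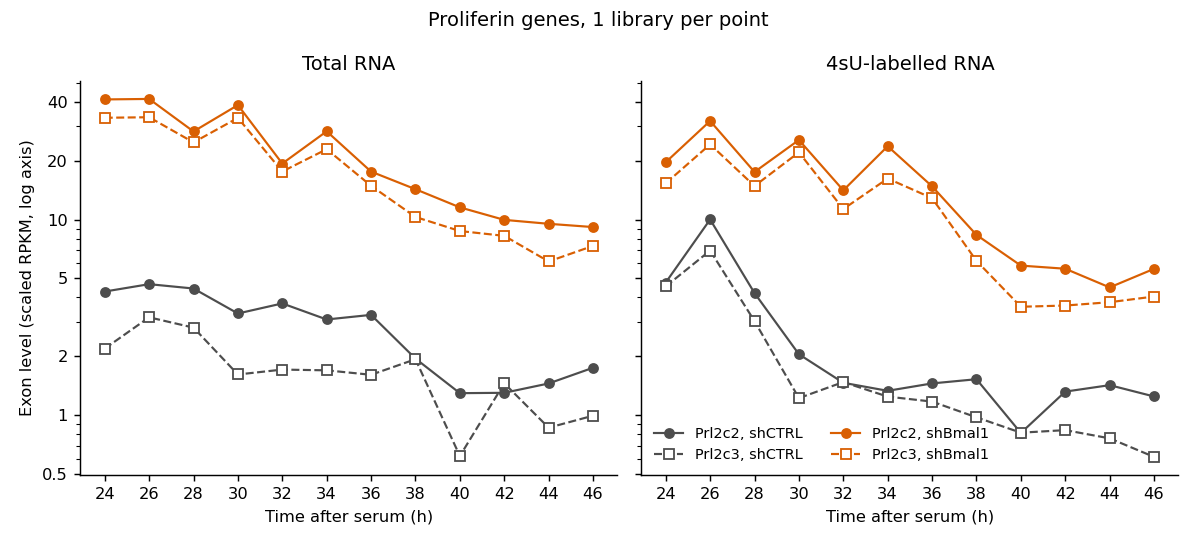
Exon levels of Prl2c2 (filled circles, solid lines) and Prl2c3 (open squares, dashed lines) in scaled RPKM on a log axis against time after serum, in total RNA (left) and 4sU-labelled RNA (right), with shCTRL in grey and shBmal1 in orange and 1 library per point. In total RNA each shBmal1 point lies above all shCTRL points, and all 8 courses end below their start.

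4sU-labelled RNA showed the same order of lines and a different course in shCTRL. The summed exon level of the pair in shCTRL was 9.32, 16.9, 7.24, 3.27, 2.94 and 2.58 scaled RPKM from 24 to 34 h and 2.63, 2.50, 1.63, 2.16, 2.19 and 1.86 from 36 to 46 h. In shBmal1 it was 35.0, 56.1, 32.3, 47.6, 25.4 and 39.9 in the earlier 6 libraries and 27.7, 14.5, 9.40, 9.24, 8.28 and 9.64 in the later 6. The shCTRL level was high only in the 3 libraries up to 28 h, whereas in shBmal1 levels above 25 persisted to 36 h. The groups overlapped, because shCTRL at 26 h exceeded the late shBmal1 libraries: 7 of 12 shBmal1 libraries lay above the highest shCTRL library. At matched times shBmal1 was higher at 12 of 12.

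The log2 line difference in 4sU exon RNA was 2.55 (SD 0.80) for Prl2c2 and 2.57 (SD 0.75) for Prl2c3, the 2nd and 1st highest of 11014 genes. For the sum it moved from 1.72 at 26 h to 3.90 at 34 h, which is 3.31-fold to 15.5-fold. By contrast, the difference in total exon RNA at these times was 3.24 and 3.39. Of all genes, 3.14% had every shBmal1 library above every shCTRL library in 4sU exon RNA. Per the labels' protocols, the RNA that entered the pull-down was about 50% of the sample in shCTRL and 60-70% in shBmal1, and what this did to the 4sU values was not tested.

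**Figure D2:**
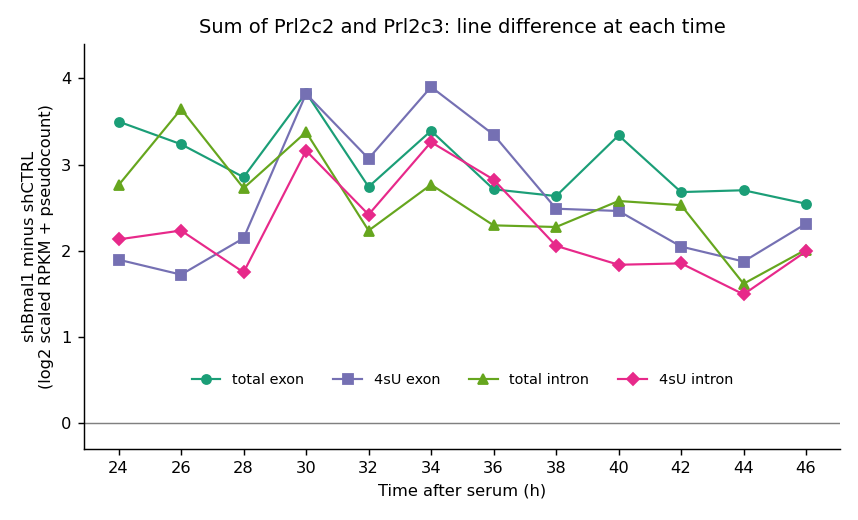
Difference of shBmal1 minus shCTRL for the sum of Prl2c2 and Prl2c3 (log2 of scaled RPKM plus pseudocount) at each time after serum, for total exon (circles), 4sU exon (squares), total intron (triangles) and 4sU intron (diamonds), 1 pair of libraries per point. All 48 points lie above 0, and the 4sU exon difference is lowest at 26 h (1.72) and highest at 34 h (3.90).

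Intronic reads, which come mostly from unspliced transcripts, were few. The Prl2c2 intron level in 4sU RNA had a lowest, median and highest value of 0.0174, 0.0362 and 0.146 scaled RPKM in shCTRL and 0.102, 0.298 and 0.780 in shBmal1. The shCTRL libraries held 12 to 98 such reads and the shBmal1 libraries 55 to 425. In total RNA the Prl2c2 intron level ran from 0.0172 to 0.118 in shCTRL and from 0.170 to 1.09 in shBmal1, with no overlap (2.63% of all genes). The 4sU intron levels did overlap, with 9 of 12 shBmal1 libraries above the shCTRL highest (1.71% of all genes had no overlap in this layer).

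The mean log2 line difference of Prl2c2 was 2.21 (SD 0.55) in 4sU intron and 2.42 (SD 0.55) in total intron RNA. Prl2c2 passed the minimum of 0.1 mean intron RPKM only through shBmal1, whose deposited mean was 0.281 in 4sU RNA against 0.0601 in shCTRL, so its intron line difference had to be large and its place among the tested genes is not given. Prl2c3, with means of 0.0382 in 4sU and 0.062 in total RNA over both lines, did not pass and has no intron test. Its introns held 2 to 26 reads per shCTRL 4sU library and 12 to 82 per shBmal1 4sU library.

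The copies took unequal parts of the reads. Prl2c3 held a mean 38.3% ± 6.88 (SD, n = 12) of the pair's exon reads in shCTRL total RNA and 45.0% ± 2.32 in shBmal1 total RNA. In 4sU RNA its share was 42.8% ± 6.05 and 43.6% ± 2.81, respectively. In introns the share was lower, from 14.9% ± 5.53 in shCTRL total RNA to 21.6% ± 6.58 in shCTRL 4sU RNA. The exon lengths behind the deposited RPKM, 833 bases for Prl2c2 and 848 for Prl2c3, and the intron lengths, 8525 and 8407 bases, were nearly equal. Exon and intron reads thus split differently between genes of like length, and the effect of reads that match both copies was not tested.

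The course through time was tested within each line by a straight line fitted to the log2 levels with limma, and both genes fell in both lines. In total exon RNA the slope of Prl2c2 was -0.086 ± 0.010 log2 per h (SE) in shCTRL (adjusted p = 5.82e-06) and -0.111 ± 0.010 in shBmal1 (adjusted p = 1.10e-08). The slope of Prl2c3 was -0.069 ± 0.013 in shCTRL (adjusted p = 0.00102) and -0.121 ± 0.013 in shBmal1 (adjusted p = 7.75e-08). Over all genes, 3.12% fell in shCTRL and 13.5% in shBmal1 at the same threshold. Among 10912 genes ordered by slope, Prl2c2 was the 3rd steepest to fall in shCTRL and the 2nd in shBmal1, and Prl2c3 the 6th and the 1st.

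From the mean of 24 and 26 h to the mean of 44 and 46 h, the summed total exon level went from 7.16 to 2.53 scaled RPKM in shCTRL, a 2.83-fold drop. In shBmal1 it went from 74.5 to 16.1, a 4.64-fold drop. Even after this drop, the summed level in shBmal1 stood above that of shCTRL at any time measured.

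In 4sU exon RNA both genes also fell, and their fitted slopes were the steepest falls of all 11014 genes in both lines. A straight line leaves out the shape of these courses. In shCTRL the sum went from 16.9 scaled RPKM at 26 h to 3.27 at 30 h and 1.86 at 46 h. In shBmal1 it stayed at 25.4 or more up to 36 h, so slopes of like size do not mean like courses. The slope of Prl2c3 was -0.129 ± 0.019 log2 per h in shCTRL (adjusted p = 0.000147) and -0.130 ± 0.019 in shBmal1 (adjusted p = 2.87e-05), the steepest in each. That of Prl2c2, next in both orders, was -0.109 ± 0.021 in shCTRL (adjusted p = 0.00345) and -0.122 ± 0.021 in shBmal1 (adjusted p = 0.000245). Falling genes made up 1.67% and 8.93% of all genes. The summed 4sU exon level dropped 6.49-fold from 24 and 26 h to 44 and 46 h in shCTRL, against 2.83-fold in total RNA, and 5.08-fold in shBmal1.

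Prl2c2 introns, which entered the fit only through their level in shBmal1, were followed in the same way. The 4sU intron slope was -0.079 ± 0.016 in shCTRL (adjusted p = 0.00525) and -0.113 ± 0.016 in shBmal1 (adjusted p = 2.25e-05), beside 1.46% and 6.57% of all genes. In total intron RNA the slopes were -0.063 ± 0.012 (adjusted p = 0.00293) and -0.118 ± 0.012 (adjusted p = 1.54e-07), beside 1.21% and 12.1%. With no filter, so that the level in neither line decided entry, the shCTRL slopes had adjusted p = 0.0059 in 4sU and 0.00346 in total RNA. With pseudocounts of 1 for exons and 0.1 for introns, the shCTRL intron slopes were no longer called (adjusted p = 0.0737 in 4sU and 0.0628 in total RNA).

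**Figure D3:**
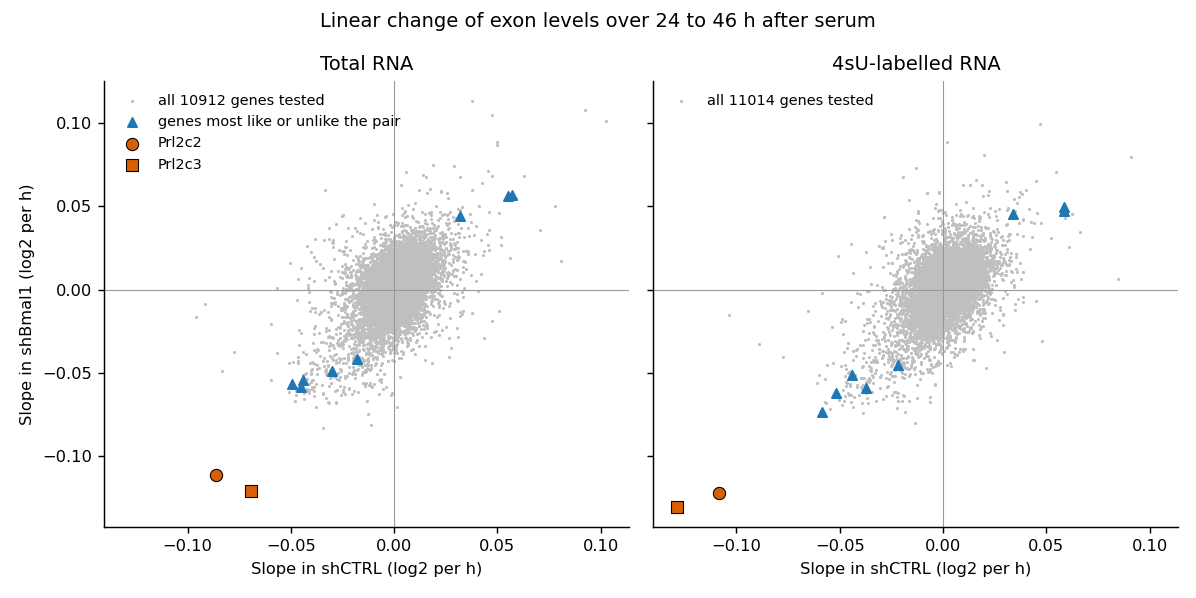
Slope of exon levels over 24 to 46 h in shBmal1 against that in shCTRL, both in log2 per h, in total RNA (left) and 4sU-labelled RNA (right). Grey dots are all genes tested, orange symbols the proliferin genes and blue triangles the 8 genes whose courses were most like or unlike their sum; the pair lies at the lower left edge of both clouds, with Prl2c3 at -0.129 and -0.130 in 4sU RNA.

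A difference in slope between the lines was not called by limma in any of 6 tests, of which 2 had an unadjusted p under 0.05. In total exon RNA the difference of shBmal1 minus shCTRL was -0.025 log2 per h for Prl2c2 (95% interval -0.054 to 0.004, adjusted p = 0.398) and -0.051 for Prl2c3 (-0.087 to -0.016, adjusted p = 0.108). In 4sU exon RNA it was -0.013 (-0.072 to 0.045) and -0.002 (-0.054 to 0.050), so a steeper fall in either line lies within these intervals, and the sign of both changed when single times were left out. The call for total exon RNA depended on the pseudocount. With pseudocounts of 1 and 0.1 the difference was called for Prl2c2 (-0.042, adjusted p = 0.0419) and Prl2c3 (-0.069, adjusted p = 0.00301), and for Prl2c2 total introns (-0.068, adjusted p = 0.006). A pseudocount shrinks log2 changes more at lower levels. Total exon levels in shCTRL ran from 1.30 to 4.67 scaled RPKM for Prl2c2 and from 0.618 to 3.16 for Prl2c3. Their lowest levels in shBmal1 were 9.15 and 6.11. The calls with larger pseudocounts therefore cannot decide whether the fall differed between the lines. At the main pseudocounts, the slope difference was called for Prl2c3 without the 40 h libraries (-0.058, adjusted p = 0.0354). Slope differences were called in 4.84% (total) and 0.499% (4sU) of all genes in exon RNA, and in 0.968% (total) and 0.371% (4sU) in introns.

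A 24-h wave was called in 10 of 12 tests over genes, lines and layers. In total exon RNA of shBmal1 the amplitude (mean to peak) was 0.94 ± 0.13 log2 for Prl2c2 (adjusted p = 0.000661) and 1.06 ± 0.16 for Prl2c3 (adjusted p = 0.00106), with fitted peaks at 29.1 and 29.3 h. In shCTRL it was 0.83 ± 0.13 for Prl2c2 (adjusted p = 0.00106), and for Prl2c3 0.58 ± 0.16 was not called (adjusted p = 0.0975). Waves were called in 3.6% of all genes in shCTRL and 11.1% in shBmal1. In 4sU exon RNA the fitted peak was 26.6 h for Prl2c2 and 27.3 h for Prl2c3 in shCTRL and 29.9 and 29.8 h in shBmal1, beside calls in 1.98% and 17.9% of all genes. The Prl2c2 intron waves were called except in shCTRL total RNA (amplitude 0.61 ± 0.14, adjusted p = 0.0758). Prl2c2 introns entered these tests only through their level in shBmal1. With no filter the same intron waves were called in 4sU RNA (adjusted p = 0.0255 in shCTRL and 0.000817 in shBmal1). In total RNA that of shBmal1 was called (adjusted p = 0.00227) and that of shCTRL was not (adjusted p = 0.0836). The shCTRL calls were the less stable: that of Prl2c2 4sU introns was lost in 6 of 12 fits that left out 1 time (adjusted p up to 0.185), and that of Prl2c3 4sU exons in 4 of 12 (up to 0.105). Both were lost with 24-h terms only (adjusted p = 0.199 and 0.0938). Intron waves of all genes were called in 1.12% (shCTRL) and 5.82% (shBmal1) in 4sU RNA and in 1.34% and 5.17% in total RNA.

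The samples span less than 1 full cycle, and a steady fall resembles a wave there. With a linear time term added, none of the 10 waves was called (adjusted p from 0.129 to 0.867), so rhythm and decline cannot be told apart. A difference in the wave between the lines was not called by limma in any of 6 tests (2 with an unadjusted p under 0.05). The lowest adjusted p was 0.331, for Prl2c2 in 4sU exon RNA. Such differences were called in 0.182% of all genes in that layer, 0.66% in total exon RNA, and in introns in 0.0952% (4sU) and 0.14% (total). Waves of 12 h were called in none of 12 tests (7 with an unadjusted p under 0.05, lowest adjusted p = 0.131), and in 0.0183% of all genes in shBmal1 total exon RNA, 0.449% in shBmal1 total introns and 0% in the other lines and layers.

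In shBmal1 the decline was not smooth. Between 26 and 36 h the sum in total exon RNA alternated: 74.7, 53.0, 71.6, 36.9, 51.1 and 32.5 scaled RPKM at 2-h steps. For Prl2c2, the 1471 reads at 28 h (95% exact Poisson interval 1397 to 1548) and the 1822 at 30 h (1739 to 1908) do not share an interval. Total and 4sU exon levels of the sum moved in the same direction in 11 of 11 steps in shBmal1 and in 8 of 11 in shCTRL. These libraries come from the same culture at each time, so a step can belong to the culture as well as to the hour, and with 1 culture per time this was not tested.

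The 4sU/total ratio (log2 of 4sU exon minus total exon, with the median gene of each library pair at 0) sets newly made RNA beside the RNA present. In shCTRL the Prl2c2 ratio was 0.17, 1.10 and -0.06 at 24, 26 and 28 h, then -0.66, -1.27, -1.16, -1.12, -0.32, -0.61, 0.02, -0.05 and -0.44 from 30 to 46 h. The Prl2c3 ratio was 1.05, 1.12 and 0.13 up to 28 h and from -0.91 to 0.35 from 30 h on. The 4sU/total ratio of both genes was thus above that of the median gene at 24 and 26 h in this line and below it in most later libraries. In shBmal1 the ratio was below the median gene at all 12 times for both genes, from -1.07 to -0.25 for Prl2c2 and from -1.25 to -0.23 for Prl2c3.

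Over the 12 times the mean ratio in shBmal1 was -0.66 ± 0.14 (SE) for Prl2c2 (adjusted p = 9.49e-05) and -0.74 ± 0.14 for Prl2c3 (adjusted p = 2.04e-05). Of 10870 genes, 9.15% and 6.49% had lower ratios. In shCTRL it was -0.37 ± 0.14 for Prl2c2 (adjusted p = 0.0172) and -0.10 ± 0.14 for Prl2c3 (adjusted p = 0.504). The fit had a flat mean per line and a spread shared by both lines, so changes over time count as spread. The SD over times was 0.67 (Prl2c2) and 0.65 (Prl2c3) in shCTRL and 0.28 and 0.30 in shBmal1. By this test 84.3% of all genes were called in either direction in shCTRL and 85.7% in shBmal1 (42% and 42.7% of all genes as lower), so a call sets the pair apart little. The shCTRL call for Prl2c2 was lost without the 32, 34 or 36 h libraries (adjusted p = 0.0609, 0.054 and 0.0533). The ratio of the lines to each other was not tested.

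**Figure D4:**
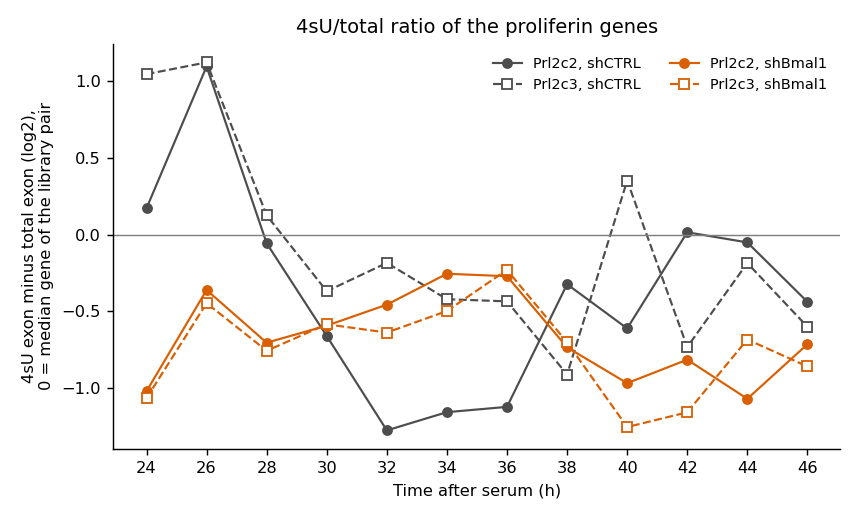
4sU/total ratio of Prl2c2 (filled circles) and Prl2c3 (open squares) on a log2 scale against time after serum, with shCTRL in grey, shBmal1 in orange, 1 library pair per point and the median gene of each pair at 0. The shCTRL courses start above 0 and reach 1.10 and 1.12 at 26 h, while all 24 shBmal1 points lie below 0.

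Among 6735 genes with a mean of at least 5 RPKM in total RNA, the courses most like that of the sum belonged to Nqo1, Tmpo, Ccna2, Ccnb1 and Kif20a. Likeness was Pearson's r over the 24 total exon libraries after each line's mean was taken off, and it is a description in which all genes share the libraries. Nqo1, a quinone reductase of the oxidative stress response, had r = 0.948, and Tmpo, which encodes a protein of the nuclear envelope, had 0.935. Ccna2 and Ccnb1, the cyclins of S phase and mitosis, had 0.931 and 0.924, and Kif20a, a kinesin of cytokinesis, had 0.923. In shBmal1 Ccnb1 went from 9.83 scaled RPKM over 24 and 26 h to 4.69 over 44 and 46 h, and Nqo1 from 17.6 to 8.56. Their line differences ran from 0.22 for Tmpo to 0.58 for Ccnb1 in log2, far smaller than those of the pair, which was chosen for a large one. The most opposite courses were those of Gm15851 (r = -0.947), Prelp (r = -0.940) and Thbs2 (r = -0.937). Prelp and Thbs2 encode matrix proteins, and in shCTRL Prelp went from 14.2 to 27.2 scaled RPKM.

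The pair was chosen for its large line difference, so that each listed gene tested differed by less follows from this choice. Among the listed genes the largest log2 differences were -2.23 for Mymx and -1.69 for Pdgfra. Of 80 tested in total exon RNA, 27 were higher and 37 lower in shBmal1 at adjusted p under 0.05, beside 34.4% and 33.1% of all genes. On RPKM as deposited, without scaling, the counts were 36 higher and 31 lower (all genes 4985 and 2606, against 3759 and 3615), and no called gene changed sign. The other 26 prolactin family genes on the list were not analysed here.

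Of 6 listed genes for mannose 6-phosphate receptors, the prolactin receptor and the sugar tag, 4 were tested. Of these, 3 were higher and 1 lower (median log2 difference 0.31, all genes 0.006), beside 34.4% and 33.1% of all genes. M6pr, the cation-dependent mannose 6-phosphate receptor, was higher in shBmal1 (33.6 ± 2.09 scaled RPKM against 26.2 ± 1.43, SD, n = 12, log2 difference 0.36 ± 0.03, adjusted p = 8.82e-09 by limma). Gnptg, a subunit of the enzyme that adds the tag, and Nagpa, which uncovers it, were higher by 0.31 ± 0.05 and 0.30 ± 0.06. The exon length behind the Nagpa RPKM differed between the shCTRL and shBmal1 total libraries (2124 and 2213 bases). Gnptab, the catalytic subunit, was lower by 0.16 on the log2 scale (-0.16 ± 0.04). Igf2r, which encodes the other mannose 6-phosphate receptor, and Prlr were not analysed here. The M6pr level therefore does not settle the level of the receptor that binds proliferin.

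Of 9 AP-1 genes tested, 4 were higher and 1 was lower (median 0.11), beside 34.4% and 33.1% of all genes. Fosl1, an AP-1 subunit, was higher by 0.46 ± 0.06 in log2 (54.8 ± 9.60 against 39.6 ± 4.84 scaled RPKM, adjusted p = 2.62e-06), Fos by 0.38 ± 0.11 (adjusted p = 0.00452) and Jdp2, a repressor, by 0.17 ± 0.06 (adjusted p = 0.0294). Over time in shBmal1, 5 of the 9 rose and none fell, beside 11.5% and 13.5% of all genes. Fosl1 was not among them, with a slope of -0.013 ± 0.008 log2 per h (adjusted p = 0.234). Of 9 genes for the glucocorticoid receptor and its targets, 2 were higher and 5 lower (median -0.17). The transcription factor gene Klf9 differed by -0.43 ± 0.07 and Errfi1, an inhibitor of the EGF receptor, by -0.33 ± 0.05, while the kinase gene Sgk1 was higher by 0.27 ± 0.04.

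Growth factor genes and their receptors were more often lower, with 8 of 14 lower and 3 higher (median -0.25), beside 33.1% and 34.4% of all genes. Pdgfra, the PDGF alpha receptor, was at 22.0 ± 3.67 scaled RPKM in shBmal1 and 70.5 ± 4.23 in shCTRL (-1.69 ± 0.05, adjusted p = 3.17e-16). Pdgfrb differed by -0.74 ± 0.05, and Hbegf, a ligand of the EGF receptor, was higher by 0.70 ± 0.08. Of 10 angiogenesis regulators, 6 were lower and 2 higher (median -0.19): Vegfb differed by -1.45 ± 0.08, Thbs1, an inhibitor of vessel growth, by -0.88 ± 0.06 and Ccn2, a matrix growth factor, by 0.97 ± 0.11. Proliferin is itself angiogenic, but the pair was chosen for being higher in shBmal1. Its direction beside these genes is therefore no result, and a link to vessel growth was not tested.

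In the ERK pathway, which mitogens use, 8 of 20 were higher and 9 lower (median -0.07), beside 34.4% and 33.1% of all genes. The ERK phosphatase genes Dusp5 and Dusp4 were higher by 0.87 ± 0.08 and 0.72 ± 0.05, and the early response gene Egr1 differed by -0.69 ± 0.11. Fibroblast markers were lower in 8 of 11 and higher in 3 (median -0.60), led by Pdgfra, Dcn (-1.37 ± 0.09) and Col3a1 (-0.89 ± 0.05). Of the markers of other cells, Lyz2 of myeloid cells (0.84 ± 0.07) and Des of muscle (1.05 ± 0.07) were higher and Mymx of fusing myoblasts was lower (-2.23 ± 0.13). Des did not exceed 1.98 scaled RPKM in any library.

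**Figure D5:**
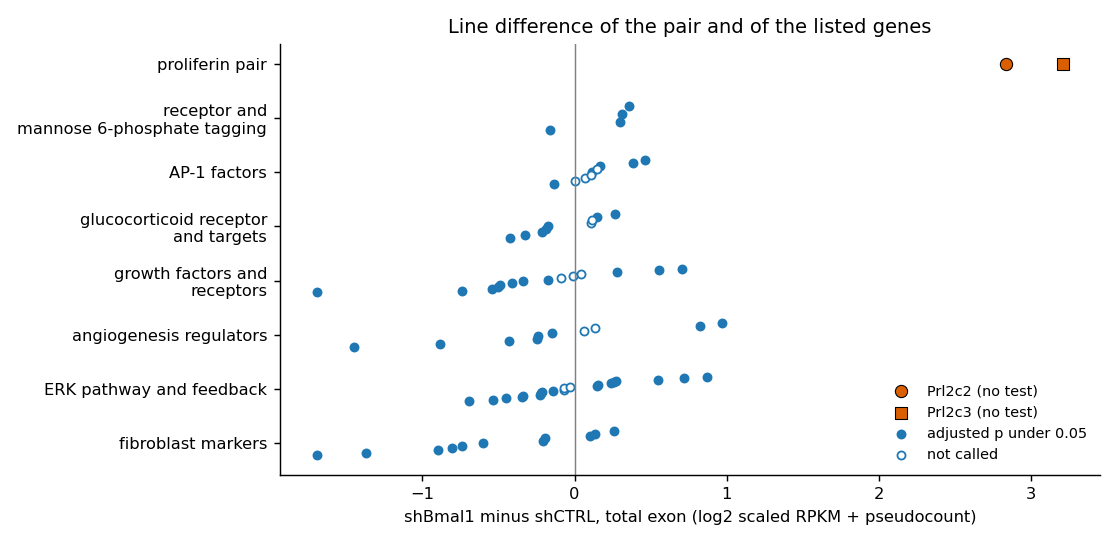
Mean difference of shBmal1 minus shCTRL in total exon RNA (log2 of scaled RPKM plus pseudocount) for the proliferin pair (orange, no test) and for the tested genes of 7 lists, 1 point per gene, filled where the adjusted p is under 0.05. The listed genes lie between -1.69 and 0.97, and the pair, chosen for its large difference, lies at 2.84 and 3.21.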

How the data were processed

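The authors deposited exon and intron RPKM for 11313 genes in 48 libraries. Per the submitters' processing notes, Trim Galore, HOMER 4.11.1 and mm10 (GRCm38.p6) were used, and for the aligner these sources give no name. Library totals and feature lengths were recovered from the steps of the RPKM values (totals within 0.0326 reads of a whole number, read counts of the 2 genes within 2.08e-05). Deposited intron RPKM used totals 1.35 to 1.39 times the exon totals in the shBmal1 4sU libraries. RPKM were therefore scaled within each layer by the median ratio to the geometric mean library and written as log2(scaled RPKM + 0.1) for exons and + 0.02 for introns, which makes fold changes of low genes too small.

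Fits covered the genes whose mean over the 24 libraries of a layer reached 0.5 exon or 0.1 intron RPKM, and used limma 3.58.1 in R 4.3.3 (trend, robust). The fits had line means with 24-h and 12-h terms, or with a slope per line. The line difference of listed genes came from the first of these. P-values were adjusted by Benjamini-Hochberg over all genes of a layer, and calls were made at adjusted p under 0.05. The sum has no p. The code was tested on simulated data.

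The genes, lists and tests were chosen with earlier results of these data known. Beyond the pair and Arntl, the text names at most 3 called genes per list with the largest line difference, and the 5 genes most and 3 least correlated with the sum. Gnptab, marker genes given as examples and genes without rows were named outside this rule. RefSeq symbols matched 10747 (95.0%) of the genes. Other pseudocounts, scalings, filters, variance models, time terms, pairing by time and leaving out each time were tried.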

Additional observations from a re-analysis of the deposited data

How the results depend on the processing

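Over 66 values and 1250 alternative values of them, 1198 stayed the same and 52 changed. A tested value stayed the same if it kept its direction and side of the threshold. A line difference of the pair, which has no test, stayed the same if it moved by less than its SD over the 12 times. Counts of listed genes stayed the same if each lay within a set fold of its main count. By this rule the counts without scaling, 36 higher and 31 lower, stayed the same as 27 and 37, although the larger side changed. The direction turned in 7, all of slope differences in 4sU exon RNA that were never called: Prl2c2 ran from -0.034 to 0.0035 and Prl2c3 from -0.025 to 0.013 when each time was left out, and Prl2c3 was 0.0041 with pseudocounts of 0.01 and 0.005. Slopes of exon RNA stayed called in both lines under each alternative run. With a linear time term, the 24-h amplitudes that lost their call were 0.54 (Prl2c2 shCTRL), 0.22 (Prl2c2 shBmal1) and 0.34 (Prl2c3 shBmal1) in total exon, 0.74, 0.65, 0.43 and 0.79 in 4sU exon (Prl2c2 shCTRL and shBmal1, Prl2c3 shCTRL and shBmal1), 0.43 and 0.66 in Prl2c2 4sU intron and 0.43 in Prl2c2 shBmal1 total intron. With 24-h terms alone, Prl2c3 4sU exon (1.00) and Prl2c2 4sU intron (0.70) lost theirs in shCTRL. With pseudocounts of 1 and 0.1, shCTRL Prl2c2 lost the 4sU intron wave (0.34) and the intron slopes (-0.038 in 4sU, -0.031 in total), and the slope differences -0.042 (Prl2c2 total exon), -0.069 (Prl2c3 total exon) and -0.068 (Prl2c2 total intron) were gained. The intron line differences then moved to 1.39 (Prl2c2), 0.55 (Prl2c3) and 1.49 (sum) in 4sU and 1.65, 0.91 and 1.82 in total RNA. With 0.01 and 0.005, those of Prl2c3 were 1.99 and 2.85. The Prl2c2 shCTRL total intron wave was gained with 0.01 and 0.005 (0.78) and with each line on its own (0.61). Leaving out each time in turn, calls changed for the shCTRL wave of Prl2c2 4sU intron (0.63 to 0.77, lost in 6 of 12), Prl2c2 total intron (0.55 to 0.67, gained in 2), Prl2c3 4sU exon (0.87 to 1.13, lost in 4) and Prl2c3 total exon (0.37 to 0.78, gained in 1), the shCTRL ratio of Prl2c2 (-0.50 to -0.28) and the Prl2c3 total exon slope difference (-0.058 to -0.043). Apart from the values with fewer libraries, the cause was not tested. The replicate block, with libraries paired by the time they share, changed no call (Prl2c2 4sU exon differential rhythm 0.93, adjusted p = 0.0867; Prl2c3 total exon slope difference -0.051, adjusted p = 0.0801). With no filter, Prl2c3 total introns had a slope difference of -0.080 (adjusted p = 0.00219). The shCTRL slope was -0.019 and not called (adjusted p = 0.324), and that of shBmal1 was -0.0998. The shCTRL levels, from 0.00177 to 0.021 scaled RPKM, lay about or below the pseudocount of 0.02. That pseudocount flattens a fall at such levels, so the call cannot decide whether the fall differed. In 4sU introns of Prl2c3 the difference was not called (-0.029, adjusted p = 0.661). Depth limits the introns most: shCTRL Prl2c3 introns held 1 to 13 reads in total RNA.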
